A study of Mus musculus with 6 samples.

Results

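The genes described here are 10 feedback and target genes of the WNT pathway (Axin2, Lef1, Sp5, Cdx1, Nkd1, Tcf7, Notum, Lgr5, Rnf43 and Znrf3), measured in J1 mouse embryonic stem cells with and without the kinase inhibitor SB431542. They were chosen by name, with earlier results of these data known. In all, 13 array probes carried a RefSeq accession that maps to them. Of the 10 genes, 9 had a probe well above background on at least 3 of 6 arrays and were tested, among 25899 features tested in all. The exception, Lgr5, had no array with a signal well above background. J1 is an embryonic stem cell line from the inner cell mass of strain 129S4/SvJae, here adapted to gelatin and held in serum replacement medium with LIF (1000 U/mL), a cytokine that supports self-renewal. Of the 6 samples, 3 were kept for 24 h with the solvent DMSO and 3 for 24 h with 3 µM SB431542, an inhibitor of the kinases ALK4, ALK5 and ALK7, receptors of Nodal, activin and TGF-beta. The inhibitor was given at a single dose and time in a line from 1 strain, and whether replicates were grown separately is not stated. The p-values therefore reflect only how far these samples scatter, and that scatter may be technical.

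In the WNT pathway, secreted ligands bind Frizzled receptors and LRP co-receptors, which halts a cytoplasmic complex that otherwise destroys beta-catenin. Beta-catenin then enters the nucleus, joins factors of the TCF/LEF family and activates target genes. Several of those targets dampen the pathway again, as Axin2 does in the destruction complex, Nkd1 at Dishevelled, Notum on the ligand and Rnf43 and Znrf3 on the receptors. In embryonic stem cells the pathway supports self-renewal, largely by relieving repression by Tcf7l1, and at gastrulation WNT and Nodal act together in the primitive streak.

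The 6 arrays had between 63.9% and 66.2% of spots well above background. Levels are given as log2 of the background-subtracted signal minus the array's 75th percentile, so that 0 is that percentile, and a change is the SB431542 mean minus the DMSO mean on this log2 scale. Slide 1 carried all arrays except SB431542 replicate 3, which was alone on slide 2 and scanned separately. The median SD over features was 0.07 in DMSO and 0.12 in SB431542. All 4 Nodal feedback genes, listed as a check of the inhibitor with earlier results of these data known, were lower in treated cells. Lefty1, an inhibitor of Nodal, fell by 9.43 ± 0.20 (SE, here and below over 3 arrays a group; limma adjusted p = 3.18e-05), and 1 of its 3 SB431542 arrays was not well above background. Lefty2 (-4.85 ± 0.10), the inhibitory Smad gene Smad7 (-4.59 ± 0.05) and Skil (-1.34 ± 0.07), a repressor of Smad activity, also fell.

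SB431542 moved the WNT feedback and target genes in both directions. Cdx1, Lef1, Rnf43 and Nkd1 fell, Sp5 rose, and Axin2, Notum, Tcf7 and Znrf3 did not pass the test (limma adjusted p under 0.05). Thus 4 of 9 tested genes fell and 1 rose, while 7.38% of all features tested fell and 5.19% rose (12.6% changed). The 3 SB431542 arrays did not overlap the 3 DMSO arrays for 7 of the 9 genes, against 36.0% of all features. Their median change was -0.19, and that of all features was 0.02. In size without sign, the median was 0.41 against 0.14 over all features. On slide 1 alone, with 3 DMSO and 2 SB431542 arrays, 3 fell and 2 rose, against 6.47% and 4.77% of all features.

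**Figure D1:**
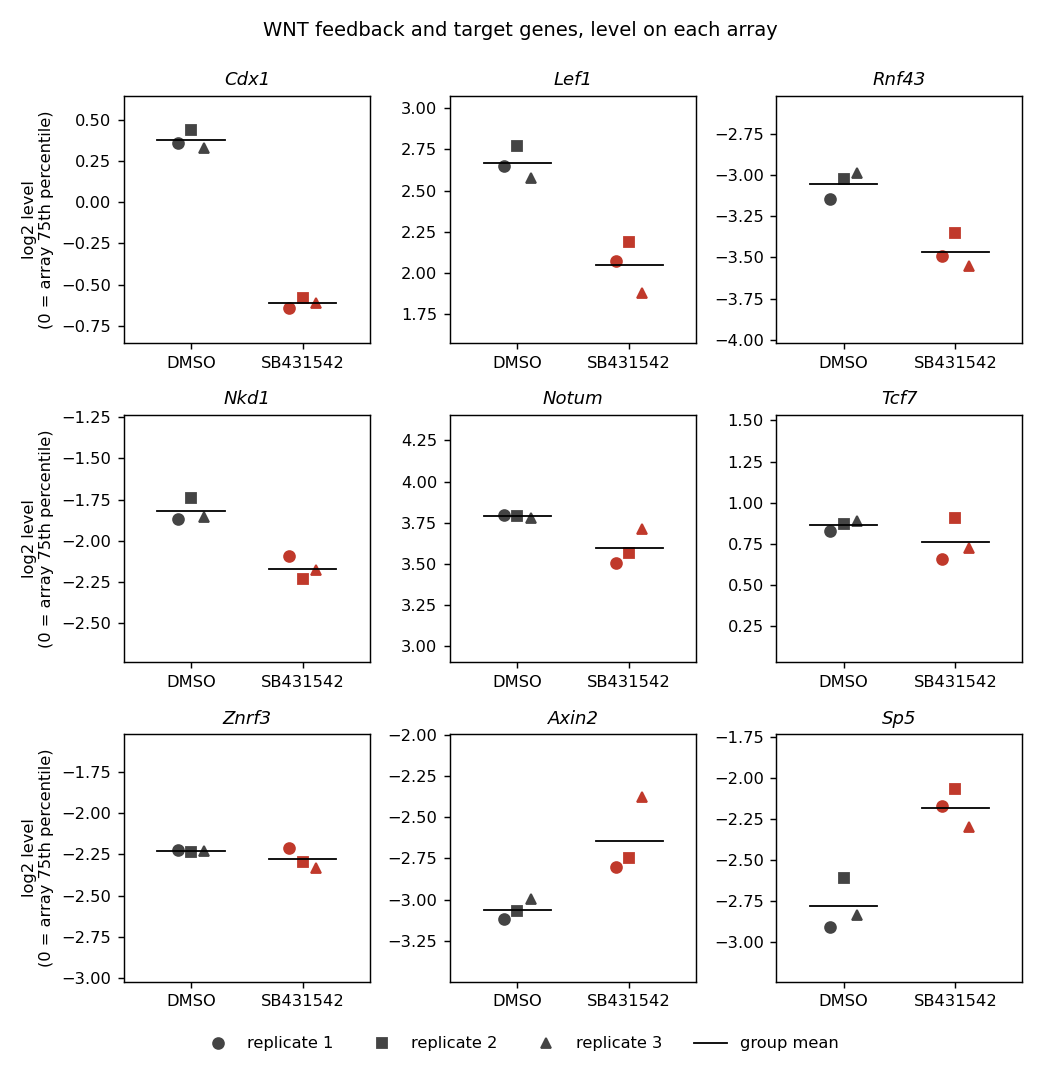
Log2 level of the 9 tested genes on each array (vertical axis, 0 is the array's 75th percentile, every panel spans 1.5 log2 units) for DMSO in grey and SB431542 in red, with symbols for replicates and a line at each group mean (3 arrays). Cdx1, Lef1, Rnf43 and Nkd1 lie lower in every SB431542 array, Sp5 and Axin2 lie higher, and Tcf7 and Znrf3 overlap.

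Among the nuclear factors through which beta-catenin acts, Lef1 fell and Tcf7 did not pass the test. Lef1, which encodes lymphoid enhancer binding factor, had levels of 2.65, 2.77 and 2.58 on the DMSO arrays and of 2.07, 2.19 and 1.88 on the SB431542 arrays. Every treated array lay below every control array. The change was -0.62 ± 0.10, a level 1.54-fold lower (limma adjusted p = 0.0132). It was -0.54 on slide 1 alone (limma adjusted p = 0.0219). The call was lost without DMSO replicate 1 (limma adjusted p = 0.0534) and without DMSO replicate 2 (0.0573). Tcf7, which encodes T cell factor 1, had levels of 0.83, 0.87 and 0.89 with DMSO and of 0.66, 0.91 and 0.73 with SB431542. SB431542 replicate 2 was the highest of all 6, so the groups overlapped. The change was -0.10 ± 0.08 (95% interval -0.29 to 0.09, limma adjusted p = 0.455). The dimmer of 2 Tcf7 probes changed by -0.13 ± 0.10, and its groups overlapped too. Whether Lef1 and Tcf7 differ in response was not tested.

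Cdx1 and Sp5, transcription factor genes downstream of the pathway, moved in opposite directions. Cdx1, a caudal-type homeobox gene of the posterior embryo, had levels of 0.36, 0.44 and 0.33 with DMSO and of -0.64, -0.58 and -0.61 with SB431542. These are the most widely separated groups among the 9 genes, with an SD of 0.06 in DMSO and of 0.03 in SB431542. The change was -0.99 ± 0.05, a level 1.98-fold lower (limma adjusted p = 0.000516). It stayed past the threshold in each of the 6 fits that left out an array, between -1.01 and -0.96. Sp5, a zinc finger gene of the Sp family that acts as a repressor downstream of beta-catenin, had levels of -2.90, -2.61 and -2.83 with DMSO and of -2.17, -2.07 and -2.30 with SB431542. Each treated array was above each control array. The change was 0.60 ± 0.10, a level 1.51-fold higher (limma adjusted p = 0.0166), and 0.66 on slide 1 alone (limma adjusted p = 0.0257). The call was kept without DMSO replicate 2 or SB431542 replicate 3 and lost without DMSO replicates 1 and 3 and SB431542 replicates 1 and 2, with limma adjusted p from 0.0517 to 0.0717. With normexp correction the Sp5 change was smaller, 0.38, and passed (limma adjusted p = 0.0138). That correction adds an offset of 50 to each signal, which by itself shrinks log2 changes of dim probes. Processed signals of Sp5 ran from 72.1 to 115, whereas the lowest signal of a probe well above background was between 8.59 and 10.9 on the 6 arrays.

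The sequences before Sp5 and Lef1 are shown as examples, chosen after the changes of these genes were seen. They were searched for letters that TCF/LEF factors recognise. Each is the 250 bases before an annotated start in RefSeq on GRCm38.p6, plus strand, with capitals for CTTTGAT or CTTTGAA on either strand. They lie at chr2:70474673-70474922 for Sp5 and chr3:131110047-131110296 for Lef1.
Sp5: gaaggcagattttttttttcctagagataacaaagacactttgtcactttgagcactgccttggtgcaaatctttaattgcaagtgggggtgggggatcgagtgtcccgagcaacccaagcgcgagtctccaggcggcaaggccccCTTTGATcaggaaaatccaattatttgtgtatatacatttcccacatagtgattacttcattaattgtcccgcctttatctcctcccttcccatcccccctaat
Lef1: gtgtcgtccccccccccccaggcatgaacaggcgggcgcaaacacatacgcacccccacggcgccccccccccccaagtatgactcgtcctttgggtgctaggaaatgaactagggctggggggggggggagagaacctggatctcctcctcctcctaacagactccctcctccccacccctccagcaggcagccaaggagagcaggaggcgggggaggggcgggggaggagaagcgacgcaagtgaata
Sp5 held 1 copy of CTTTGAT, starting 104 bases before the annotated start, and none of the 4 annotated Lef1 windows held either form. Of 32851 such windows of mouse genes, 3.21% held CTTTGAT and 4.46% CTTTGAA, and 7.48% held at least 1 of them. RefSeq windows were matched for 6 of the 10 genes (Sp5, Lef1, Nkd1, Tcf7, Rnf43 and Axin2), 11 windows in all, and Sp5 was the only gene with either form. Cdx1, Notum, Lgr5 and Znrf3 had no entry. CAGACA, letters that Smad factors recognise, was found on either strand in 1 of the 11 windows and in 17.1% of all windows. That window belongs to Lef1 and lies at chr3:131156044-131156293, so it is not the one printed. A match describes letters in a window and does not show binding, and its part in the response was not tested.

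In the cytoplasm, the feedback genes Axin2 and Nkd1 had changes of opposite sign, and 1 of them passed the test. Axin2, a scaffold of the beta-catenin destruction complex, had levels of -3.12, -3.07 and -3.00 with DMSO and of -2.80, -2.75 and -2.38 with SB431542 on its brighter probe. The treated arrays were above the controls, and SB431542 replicate 3 was the farthest. The change was 0.42 ± 0.12 (95% interval 0.12 to 0.71), with a limma adjusted p of 0.0818. Without SB431542 replicate 3, which leaves slide 1 alone, it was 0.29 and passed (limma adjusted p = 0.0466). Leaving out any other array gave a limma adjusted p from 0.0763 to 0.217. The dimmer Axin2 probe changed by 0.16 ± 0.09, and its groups overlapped. Axin2 also passed at a smaller change with normexp correction (0.26, limma adjusted p = 0.0341) and with its probes averaged (0.29, 0.0239). Nkd1, an inhibitor that binds Dishevelled, had levels of -1.87, -1.74 and -1.86 with DMSO and of -2.09, -2.23 and -2.18 with SB431542. The groups did not overlap on this brighter probe, and the change was -0.35 ± 0.06 (limma adjusted p = 0.0227). That call was kept without SB431542 replicate 1 and lost in the other 5 fits with an array left out (limma adjusted p from 0.0501 to 0.0885), among them slide 1 alone. A dimmer Nkd1 probe gave the opposite sign, 0.70 ± 0.56, with DMSO levels scattered between -5.57 and -3.50, and did not pass (limma adjusted p = 0.485 with every probe on its own). The mean of both probes changed by 0.17. On the brighter probe, normexp correction gave a smaller change of -0.19 (limma adjusted p = 0.0467), and the call was lost without a filter on dim probes (0.0516).

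Of the feedback genes that act on ligand and receptor, Rnf43 fell, while Znrf3 and Notum did not pass. Rnf43 and Znrf3 encode related membrane ubiquitin ligases that remove Frizzled receptors from the cell surface. Rnf43 had levels of -3.15, -3.02 and -2.99 with DMSO and of -3.49, -3.35 and -3.55 with SB431542, with no overlap. The change was -0.41 ± 0.08, a level 1.33-fold lower (limma adjusted p = 0.0232). The call held without DMSO replicate 1 or SB431542 replicate 2, and the other 4 fits with an array left out gave a limma adjusted p from 0.0502 to 0.0944, the lowest on slide 1 alone. With normexp background correction, whose offset of 50 shrinks changes at signals this low, the change was -0.25 and the call was lost (limma adjusted p = 0.0671). The call was also lost without a filter on dim probes (0.0520). Znrf3 had levels of -2.22, -2.23 and -2.23 with DMSO and of -2.21, -2.29 and -2.33 with SB431542. The groups overlapped, and the change was -0.05 ± 0.05 (95% interval -0.18 to 0.08, limma adjusted p = 0.578). Its sign turned with normexp background correction (0.067). Notum, a secreted carboxylesterase that removes the lipid from WNT ligands, had levels of 3.80, 3.79 and 3.78 with DMSO and of 3.51, 3.57 and 3.71 with SB431542. The groups did not overlap, with an SD of 0.01 in DMSO and of 0.11 in SB431542. Its change of -0.19 ± 0.07 (95% interval -0.36 to -0.03) had a limma adjusted p of 0.130, and on slide 1 alone it was -0.25 and passed (limma adjusted p = 0.0374). Leaving out any other array gave a limma adjusted p from 0.240 to 0.287. Notum also passed with a variance trend and robust moderation in limma (adjusted p = 0.0434).

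Lgr5, which encodes a receptor for R-spondins and marks several adult stem cells, had processed signals between 1.93 and 2.56 on the 6 arrays. These lay under the lowest signal of any probe well above background, so no change is given. The gene rests on 1 probe.

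**Figure D2:**
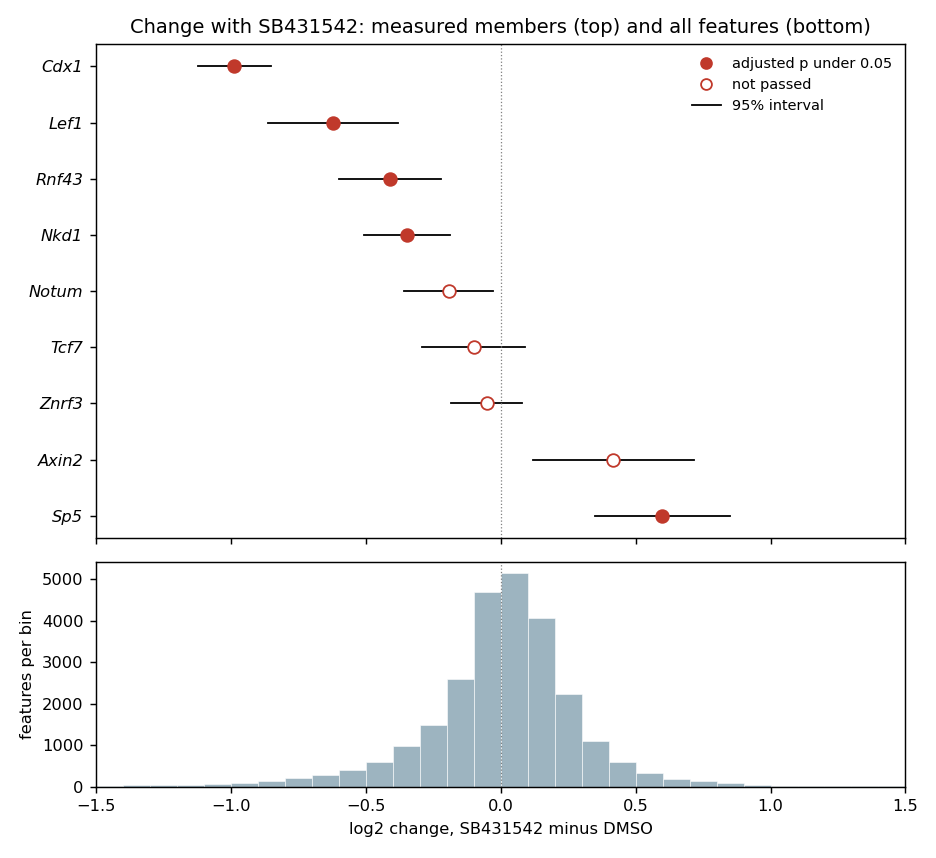
Top, log2 change (SB431542 minus DMSO, horizontal axis) of the 9 tested genes with its 95% interval, filled where the limma adjusted p was under 0.05. Bottom, the number of all 25899 features per bin on the same axis, of which most lie near 0, while Cdx1 at -0.99 and Sp5 at 0.60 lie in its tails.

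The rest of the pathway was followed through 7 lists of 106 further genes, of which 81 were tested. Of these, 7 rose and 11 fell, or 18 called in all, where 5.19% of all features rose, 7.38% fell and 12.6% were called. Single lists are small, so their counts are given as descriptions beside these shares and the median change of 0.02 over all features. Of 19 ligands 10 were tested and 1 rose, with a median change of -0.02. Wnt8a, a ligand of the early embryo, rose by 0.42 ± 0.08 (limma adjusted p = 0.0255). It passed without SB431542 replicate 3 (0.0127), and the other 5 fits with an array left out gave limma adjusted p from 0.0633 to 0.100. Wnt3, the ligand needed for primitive streak formation, cleared background on 2 DMSO arrays and 0 SB431542 arrays and was not tested.

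Of 3 tested genes of secretion and R-spondins, 1 rose and 1 fell, with a median of 0.19. Porcn, the enzyme that adds the lipid to WNT ligands, had levels of 3.25, 3.19 and 3.24 with DMSO and of 2.77, 2.71 and 2.81 with SB431542. The groups were far apart against their spread, and Porcn fell by 0.46 ± 0.05 (limma adjusted p = 0.00494), past the threshold in each fit with an array left out. Rspo1, a secreted enhancer of the pathway, rose by 0.34 ± 0.07 (limma adjusted p = 0.0363). It passed without SB431542 replicate 3, and the other 5 fits gave limma adjusted p from 0.0593 to 0.133.

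Among 17 tested receptors and co-receptors, 2 rose and 1 fell, with a median change of 0.06. Ror2, a receptor tyrosine kinase for Wnt5a, had levels of 1.77, 1.70 and 1.73 with DMSO and of 2.40, 2.45 and 2.44 with SB431542. It rose by 0.70 ± 0.05 (limma adjusted p = 0.00105) and passed in each fit with an array left out. Fzd2, a Frizzled receptor, rose by 0.38 ± 0.08 (limma adjusted p = 0.0401), kept without SB431542 replicate 3 and lost without any other array (0.0965 to 0.133). The dimmer of its 2 probes changed by 0.80. Lgr4, a receptor for R-spondins and a relative of Lgr5, fell by 0.53 ± 0.10 (limma adjusted p = 0.0216), kept without SB431542 replicate 2 and lost without any other array (0.0501 to 0.0742). The co-receptor genes Lrp5 (0.17 ± 0.07) and Lrp6 (0.06 ± 0.06) did not pass.

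Of 9 tested extracellular inhibitors, 3 fell and 6 did not pass, with a median change of -0.11. Dkk3, of the Dickkopf family, had levels of -0.63, -0.62 and -0.67 with DMSO and of -1.74, -1.56 and -1.67 with SB431542. It fell by 1.02 ± 0.07 (limma adjusted p = 0.000802). Sfrp1, a secreted protein that binds WNT ligands, fell by 0.62 ± 0.05 (limma adjusted p = 0.00170). Wif1, another secreted WNT-binding protein, fell by 1.02 ± 0.15 (limma adjusted p = 0.0115). Its probe was close to background and was well above it on 2 of 3 SB431542 arrays, and the call was lost without DMSO replicate 3 (limma adjusted p = 0.0524). Dkk1 was well above background on 1 DMSO array and was not tested.

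Of 18 cytoplasmic components, 1 rose and 2 fell, with a median of -0.01. Dact3, which encodes a Dishevelled-binding antagonist, had levels of 0.77, 0.68 and 0.69 with DMSO and of -0.09, -0.12 and -0.13 with SB431542. It fell by 0.83 ± 0.05 (limma adjusted p = 0.000728) and passed in each fit with an array left out. Btrc, which encodes the ubiquitin ligase subunit that recognises phosphorylated beta-catenin, fell by 0.32 ± 0.06 (limma adjusted p = 0.0190), and the casein kinase gene Csnk1d rose by 0.33 ± 0.06 (limma adjusted p = 0.0235). Both passed without SB431542 replicate 3 and were lost without any other array (0.0580 to 0.0833 for Btrc, 0.0558 to 0.0984 for Csnk1d). Ctnnb1, the gene of beta-catenin itself, had a change of 0.05 ± 0.05 and did not pass, and neither did Apc (0.07 ± 0.08), Axin1 (0.13 ± 0.09) or Gsk3b (-0.18 ± 0.10).

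Tcf7l1, the TCF family member that acts mainly as a repressor in embryonic stem cells, was the only 1 of 12 nuclear components to fall, and Pygo1, a beta-catenin co-factor gene, the only 1 to rise. The median of the 12 was 0.07. Tcf7l1 had levels of 1.11, 0.95 and 1.02 with DMSO and of 0.51, 0.66 and 0.68 with SB431542. All treated arrays were below the controls, with a change of -0.41 ± 0.07 (limma adjusted p = 0.0186). Leaving out an SB431542 array kept the call, and leaving out a DMSO array lost it (0.0509 to 0.0752). Pygo1 rose by 0.40 ± 0.09 (limma adjusted p = 0.0401), kept without SB431542 replicate 1 and lost without any other array (0.0839 to 0.137). Of 5 genes that Tcf7l1 is known to restrain in these cells, 3 rose and 2 did not pass, where 5.19% of all features rose. Their median change was 0.36. Klf2 rose by 0.44 ± 0.06 (limma adjusted p = 0.00623), Tfcp2l1 by 0.43 ± 0.07 (0.0172) and Nr5a2 by 0.36 ± 0.08 (0.0319), all of them pluripotency transcription factor genes. Klf2 passed in each fit with an array left out. Tfcp2l1 passed without SB431542 replicate 1 or 3 and was lost otherwise (limma adjusted p from 0.0513 to 0.0779), and Nr5a2 passed without SB431542 replicate 3 and was lost otherwise (0.0830 to 0.121). Nanog (-0.02 ± 0.06) and Esrrb (-0.09 ± 0.07) did not pass. Whether the fall of Tcf7l1 had a part in these changes was not tested.

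Of 12 tested further WNT target genes, 1 rose and 3 fell, against 5.19% and 7.38% of all features, and their median of 0.03 was close to the 0.02 of all features. Sp8, another zinc finger gene of the Sp family, had levels of -1.57, -1.85 and -1.90 with DMSO and of -3.11, -3.01 and -3.13 with SB431542. It fell by 1.31 ± 0.10 (limma adjusted p = 0.00130), while the dimmer of its 2 probes changed by -0.10. The growth regulator gene Myc fell by 1.04 ± 0.07 (limma adjusted p = 0.00101), and the cyclin gene Ccnd1 fell by 0.32 ± 0.05 (limma adjusted p = 0.0135), the latter lost without any DMSO array (0.0544 to 0.0692). Tnfrsf19, a receptor of the tumour necrosis factor family, rose by 0.44 ± 0.06 (limma adjusted p = 0.00928). The brachyury gene T, a joint target of WNT and Nodal, cleared background on 2 DMSO arrays and 0 SB431542 arrays and was not tested.

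**Figure D3:**
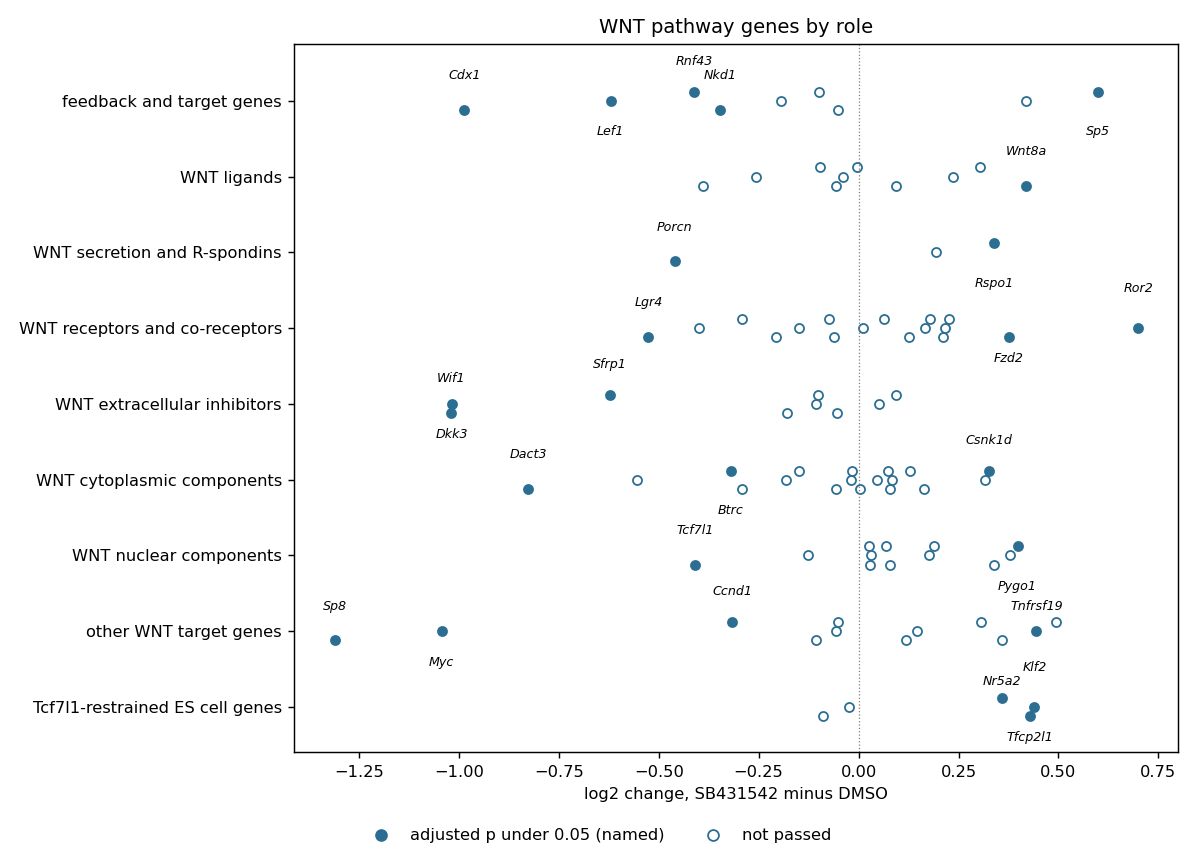
Log2 change (SB431542 minus DMSO, horizontal axis) of the tested genes of each WNT list, 1 point per gene with small vertical offsets for legibility, filled and named where the limma adjusted p was under 0.05. The 3 extracellular inhibitors that passed lie left of 0, while receptors, cytoplasmic and nuclear components have named points on both sides.

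Markers of embryonic stem cells and of other cell types were measured beside these genes. Their counts stand beside the 5.19% of all features that rose and the 7.38% that fell. All 8 embryonic stem cell markers were tested, and 3 fell (Dppa5a by 0.49, Utf1 by 0.42 and Tdgf1, the Nodal co-receptor gene, by 1.04). Pou5f1, Sox2, Nanog, Zfp42 and Esrrb did not pass. With an array left out, Pou5f1 changed by -0.44 to -0.20, Sox2 by 0.01 to 0.06 and Zfp42 by 0.07 to 0.16. Pou5f1 passed as lower without SB431542 replicate 2 and in no other such fit. The summed linear level was 609 to 632 times the 75th percentile with DMSO and 448 to 498 with SB431542. The brightest genes weigh most in such a sum. Of 12 mesendoderm markers 8 were tested, and Fgf8 changed, by -1.58 ± 0.07 (limma adjusted p = 0.000328). Their summed level was 1.72 to 1.80 with DMSO and 1.61 to 1.66 with SB431542, and Mixl1, Cer1 and Evx1 were not well above background throughout. Of 8 trophoblast markers 6 were tested. Tfap2c (1.22 ± 0.05) and Gata3 (0.97 ± 0.11) rose and Krt8 fell by 0.49. Cdx2, Eomes and Krt18 did not pass. With an array left out, Cdx2 changed by 0.05 to 0.78, Eomes by -0.06 to 0.02 and Krt18 by -0.39 to -0.26. Krt18 passed as lower without SB431542 replicate 2 and in no other such fit. The trophoblast sum was 15.5 to 16.1 with DMSO and 30.1 to 30.2 with SB431542, with Elf5 and Hand1 not well above background throughout. This sum does not stand for the list, in which only Tfap2c and Gata3 were called higher and Krt8 fell. Of 8 neuroectoderm markers 6 were tested, and Sox1 (-0.30), Nes (-0.60) and Zic1 (-0.69) fell, although a dimmer probe of Sox1 and one of Zic1 had the opposite sign (0.07 and 0.11). Their sum was 8.48 to 8.60 with DMSO and 7.39 to 8.24 with SB431542. Of 10 fibroblast markers 8 were tested. Pdgfra rose by 0.34, Col1a2 fell by 1.05 and Pdgfrb by 0.44. Dcn was at least 1.86-fold lower, since no SB431542 array was well above background. It entered the test through the DMSO arrays alone, so only this bound is given and its p-value is not used. The fibroblast sum was 45.5 to 47.4 with DMSO and 44.1 to 47.7 with SB431542, and Lum and Postn were not well above background throughout. All 10 primitive endoderm markers were tested. Pdgfra, which is in both lists, rose, Col4a1 fell by 0.25 and Lamb1 by 0.33, and the sum was 153 to 161 with DMSO and 166 to 174 with SB431542. Leaving Dcn aside, some of these marker calls were lost in fits with an array left out (limma adjusted p from 0.0508 to 0.139). Pdgfra kept its call in 4 of 6 such fits, Sox1 in 2, and Pdgfrb, Col4a1 and Lamb1 in 1. The part of other cell types in the changes of the WNT genes was not tested, and in bulk RNA fewer cells of a type and less RNA per cell cannot be told apart.

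**Figure D4:**
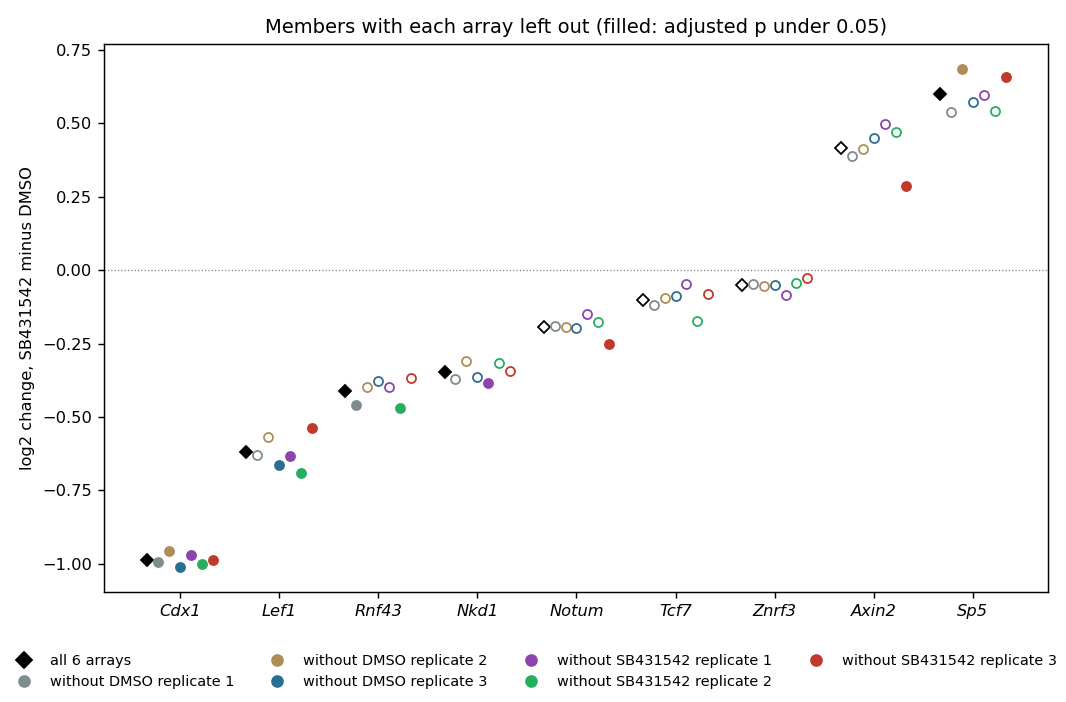
Log2 change (SB431542 minus DMSO, vertical axis) of the 9 tested genes with all 6 arrays (diamonds) and with each array left out (circles, coloured by the array), filled where the limma adjusted p was under 0.05. Cdx1 is filled throughout, and each gene keeps its sign in all 6 fits with an array left out.

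Signs were kept by the 9 genes in each of the 6 fits that left out an array, while calls were kept in each of them by Cdx1 alone. Of the other genes called with all arrays, Lef1 passed in 4 of these 6 fits, Sp5 and Rnf43 in 2 and Nkd1 in 1.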

How the data were processed

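Total RNA of J1 cells was labelled with Cy3 and hybridised to 6 Agilent 1-colour arrays. Each scanner file gives an intensity per spot that Agilent Feature Extraction (version 10.7 in the submitters' processing notes) subtracted for background and detrended, per the file headers, and flags that are a score of 0 or 1, per the file headers. A table on a log2 scale was deposited by the authors, with its normalization not given in the sources used here. Its columns had medians of 5.18 to 5.19 and correlated at 0.99988 or more with the scanner values of the same sample; it served as an alternative.

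Control spots and outlier spots were left out, which removed 81 of 55681 probes, and replicate spots were averaged. Saturated spots numbered 0. Accessions were matched without version to a RefSeq table of GRCm38.p6, which named 27200 of 55600 probes; 13 more had a symbol in the file. The array grid uses another build, so no gene coordinates were taken from that table. Log2 signals minus the array's 75th percentile were fitted with limma 3.58.1 (lmFit, eBayes, R 4.3.3), two-sided, on 25899 features: probes well above background on at least 3 arrays, the brightest per gene. P-values were Benjamini-Hochberg adjusted over all features, threshold 0.05. The fit and the adjustment, but not the earlier steps, were tested on simulated data, with 100 features changed at each of 2 sizes. They recovered 27% of log2 changes of 0.5 and 64% of log2 changes of 1. The simulated noise was normal, with the same SD in both groups. Far fewer features were changed than the 3257 called in the data, which makes the adjustment stricter. These shares need not hold for the data. A gene that did not pass may still have changed. Tables and figures used Python 3.11.15.

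The genes and lists were chosen with earlier results of these data known. Named were the 10 genes, up to 6 called genes of each WNT list, the 4 Nodal feedback genes and up to 4 called genes of each marker list; genes that did not pass are given as values and were chosen after their values were seen. Alternatives were another background correction, scaling, filter, probe rule, variance model, slide or replicate block, threshold and each array left out. The files hold no mean signal, so normexp used the median signal. Its offset of 50 shrinks log2 changes of dim probes, so a smaller change with it is not a separate measure of size. A block for slide or scan equals leaving out SB431542 replicate 3. The number of arrays limits the precision.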

Additional observations from a re-analysis of the deposited data

How the results depend on the processing

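The number of features called (3257) was 2098 without a filter on dim probes and 1222 at an adjusted p under 0.01, and it ran from 1467 to 2910 when an array was left out. With a variance trend and robust moderation in limma it was 4243. WNT genes called higher (1) numbered 2 with normexp background correction, when probes of a gene were averaged and with slide as a block, 0 at an adjusted p under 0.01, and 0 to 2 when an array was left out. WNT genes called lower (4) numbered 2 with no filter and 1 at an adjusted p under 0.01, and ran from 1 to 3 when an array was left out. Their number was 5 with a variance trend and robust moderation. Nkd1 turned to 0.17 when its probes were averaged and to 0.70 on its dimmer probe, and Znrf3 to 0.067 under normexp. The cause was not tested. Nothing states whether the replicate numbers shared by the groups pair the arrays. Deviations of same-numbered arrays correlated at 0.00, 0.07 and -0.06, which with 3 arrays per group cannot settle it. With the replicate number as a block 1567 features were called, with 2 WNT genes lower (Cdx1, Lef1) and 1 higher (Sp5). Lgr5 was too dim to give a change, and 3 arrays per group limit the precision of each value.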
